A study of Mus musculus with 4 samples.

Results

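Cholesterol is built from squalene by a chain of enzymes of the endoplasmic reticulum, and 9 genes of that chain were followed here in livers of diet-induced obese mice given galanin-like peptide (GALP) or saline: Sqle, Lss, Cyp51, Tm7sf2, Nsdhl, Hsd17b7, Ebp, Sc5d and Dhcr7. The members were all the array probes that carry one of these gene names, which gave 19 of 41037 probes and 9 of 26518 gene names. Each of the 9 genes had at least 1 probe well above background in all 8 channels, and 18 of the 19 probes were at that level. The remaining probe, of Nsdhl, was above background in no channel and is given only for completeness.

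Squalene is first oxidised and folded into lanosterol, the first sterol of the chain. Lanosterol then loses methyl groups, and its double bonds are moved and reduced until cholesterol is reached. In the liver most genes of the chain are known targets of SREBP-2, a transcription factor that is released from the endoplasmic reticulum when membrane cholesterol is low, and the liver uses the product for membranes, bile acids and lipoproteins.

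Male C57BL/6 mice (strain C57BL/6J in the sample labels) that came in at 8 weeks of age were made obese with a high-fat diet for 14 weeks, weighed at least 40 g, and stayed on that diet throughout. All of them were accustomed to the intranasal procedure and then received 2 µL once a day for 11 days, either porcine GALP(1-60), a peptide of the brain's feeding circuits, in saline with α-cyclodextrin, or saline as the control. The GALP livers formed 2 RNA pools of 4 mice each, one from the mice with the greater and one from those with the less weight loss, and both were set against 1 control pool of 8 mice. Each pool was hybridised on 2 arrays with the dyes exchanged, so that 4 arrays on 1 slide give 2 GALP pools (n = 2 throughout). The control pool is shared, its own spread was not measured, and pooled animals give no spread between mice. The sample labels name a weight loss group for both channels of an array, whereas the methods describe 1 pool of all control mice.

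Values are log2 ratios of GALP over control, with 0 for equal signal, and a pool's value is the mean of its 2 arrays. A probe was called when the scanner software's p was under 0.01 on all 4 arrays, the direction was shared by all 4, and the fold was over 1.5 or under 0.75 in both pools. This rule is a strict reading made here, since the methods give a p threshold and the choice of changes common to both groups but do not say on how many arrays each had to hold. The scanner software's p compares 2 extracts on 1 array. The pools were also tested together against 0 with limma. Between 40.5% and 46.7% of probes per channel were well above background, no spot was saturated, and the median log2 ratio of the 14453 probes above background in every channel was -0.02.

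The mean log2 ratio of each of the 9 genes was below 0, with single arrays above 0 for Lss and Ebp. Of the 18 measured member probes, 14 were below 0 on all 4 arrays, beside 16.1% of all probes above background in every channel. By the strict rule, 1 of the 19 member probes was called lower (0.132% of all probes were) and 0 were called higher (0.0585% of all probes). That probe belongs to Sc5d. Without the rule on p, a lower fold in both pools was found at 2 of 18 member probes, 1 of Sc5d and 1 of Cyp51, against 1.4% of all such probes. With limma and Benjamini-Hochberg adjustment over 41037 probes, 0 member genes and 0% of all probes passed the adjusted threshold of 0.05, and the member probes had adjusted p between 0.374 and 0.881. At an unadjusted limma p under 0.05, 8 of 18 member probes were lower, beside 12.6% of all probes. Under 2 other settings the limma count was not 0. It was 2 genes, Hsd17b7 and Sc5d, after another background correction and loess, where 95 of all 41037 probes passed. It was 1 gene, Cyp51, with the 4 arrays taken singly and the pool as a random block, where 106 probes passed.

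**Figure D1:**
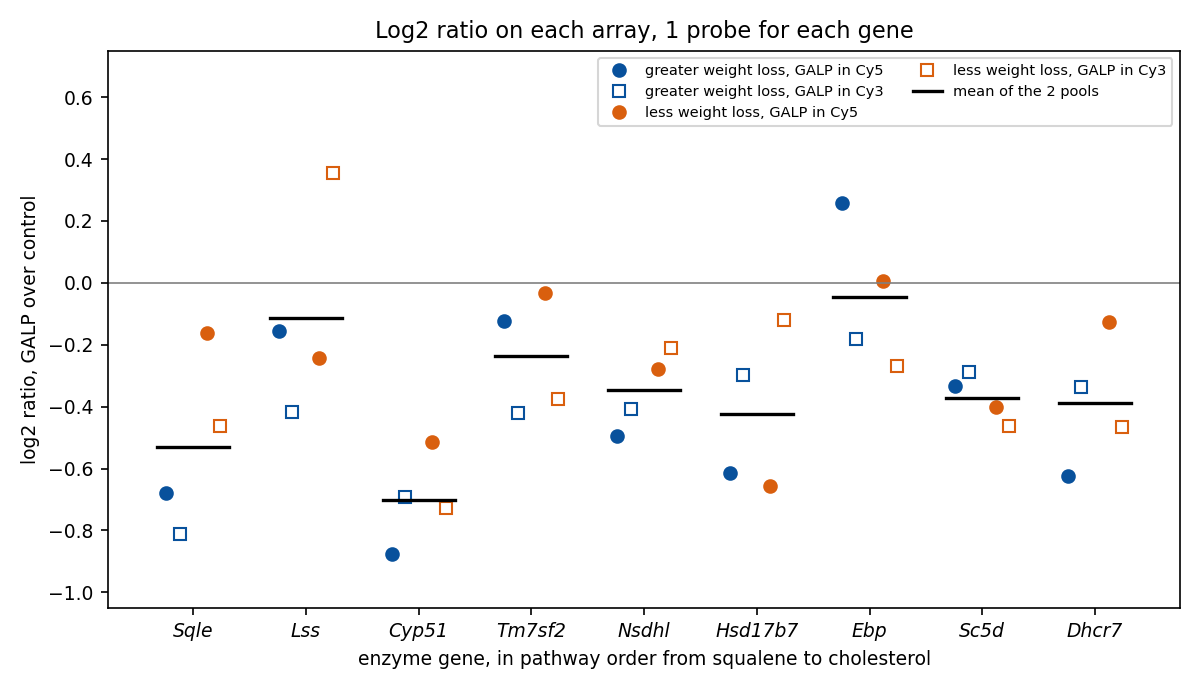
Log2 ratio of GALP over control (vertical axis) on each of the 4 arrays for the brightest probe of each of the 9 genes, in pathway order (horizontal axis). Circles are arrays with GALP in Cy5, open squares those with GALP in Cy3, blue is the greater and orange the less weight loss pool, and the black line is the mean of both pools. All 4 marks lie below 0 for 7 genes, and marks on both sides of 0 are seen for Lss and Ebp.

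Sqle and Lss carry squalene to lanosterol. Sqle encodes squalene epoxidase, which oxidises squalene and is a control point of the late chain. Its single probe (mm9, chromosome 15, 59162384 to 59162443) gave log2 ratios of -0.68 and -0.81 on the arrays of the greater weight loss pool. On those of the less weight loss pool the ratios were -0.16 and -0.46. All 4 arrays were below 0 and the arrays of the 2 pools did not overlap, and the mean of -0.53 ± 0.31 (SD, n = 2) corresponds to a 1.44-fold lower signal. The p of the scanner software was under 0.01 on the 2 arrays of the greater weight loss pool and on neither array of the other, and the adjusted p of limma was 0.597.

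Lss encodes lanosterol synthase, which closes the rings of the oxidised squalene. The probe that stands for it by mean signal (chromosome 10, 76015992 to 76016051) gave -0.15 and -0.42 in the greater and -0.24 and 0.35 in the less weight loss pool. The positive value came from an array on which both channels of this spot were far brighter (438 in control and 560 in GALP) than on the other 3 arrays, where every channel was at most 162. The mean was -0.11 ± 0.24 (SD, n = 2). Its other probes had means of -0.24 ± 0.005 and -0.11 ± 0.12, with 3 and 2 of their 4 arrays below 0. The SD of 0.005 is that of 2 close pool means, while the arrays of that probe ran from -0.49 to 0.01. Chosen by median in place of mean signal, the probe with -0.24 would stand for Lss. No Lss probe reached a p under 0.01 on any array, and the adjusted p of limma lay between 0.374 and 0.818.

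Cyp51 had the lowest log2 ratio of the 9 genes when 1 probe stands for each, and Sc5d when all measured probes of a gene are averaged (-0.51 and -0.58). The order also depended on the processing, since with normexp background correction and loess Cyp51 had -0.40, and Dhcr7 (-0.54), Sqle (-0.49) and Sc5d (-0.40) were lower. Cyp51 encodes lanosterol demethylase, the cytochrome P450 that starts the removal of methyl groups and the target of azole antifungals in its fungal form. Its brightest probe (chromosome 5, 4081471 to 4081530) gave -0.88 and -0.69 in the greater and -0.51 and -0.73 in the less weight loss pool. All 4 arrays were below 0, and the mean was -0.70 ± 0.12 (SD, n = 2), a 1.63-fold lower signal. The processed signal lay between 801 and 1048 in the control channels and between 495 and 699 in the GALP channels, so the ranges did not overlap. The probe met the fold rule in both pools and missed the call on 1 array, the one of the less weight loss pool with GALP in Cy5, where the scanner software's p was 0.0146. With that array left out, Cyp51 was called along with Sc5d, and the adjusted p of limma over all arrays was 0.382.

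The other Cyp51 probes lie further 5' in the transcript and were also below 0 on all 4 arrays, but less far. One, from base 1731 of the transcript (chromosome 5, 4083236 to 4083295), had -0.26, -0.28, -0.27 and -0.34 and a mean of -0.29 ± 0.02. Another, from base 1210, covers 407 bases of genome (chromosome 5, 4092033 to 4092439) with its 60 bases and so crosses an exon junction. It had a mean of -0.54 ± 0.19, and its dimmest channel was at 50.9. The arrays of the brightest probe and of the probe at base 1731 did not overlap, so the size of the Cyp51 ratio depended on the probe. Both 60-base probes are shown because they place the measurement inside the Cyp51 message, with no part marked.
Cyp51 probe at base 1731: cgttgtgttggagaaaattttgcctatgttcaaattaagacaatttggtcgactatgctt
Cyp51 probe at base 1210: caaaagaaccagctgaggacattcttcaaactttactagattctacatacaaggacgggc

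Tm7sf2 encodes a sterol reductase that removes the double bond left by the Cyp51 step, a reaction that Lbr can also carry out. Its single probe (chromosome 19, 6062882 to 6062941) gave -0.12 and -0.42 in the greater and -0.03 and -0.38 in the less weight loss pool. Both arrays with GALP in Cy3 were lower than both with GALP in Cy5. The mean was -0.24 ± 0.05 (SD, n = 2), no array had a p under 0.01, and the adjusted p was 0.406 with limma.

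Nsdhl and Hsd17b7 act on the carbon that carries the remaining methyl groups. Nsdhl encodes the dehydrogenase that releases them with carbon dioxide, and Hsd17b7, although named as a steroid dehydrogenase, reduces the ketone that is left. The brightest Nsdhl probe, from base 846 of the transcript, gave -0.49 and -0.41 in the greater and -0.28 and -0.21 in the less weight loss pool. Its mean was -0.35 ± 0.15 (SD, n = 2), and its 60 bases cover 1182 bases of genome (chromosome X, 70200532 to 70201713), across an exon junction. The sequence is shown as the other measured stretch of message that crosses a junction.
Nsdhl probe at base 846: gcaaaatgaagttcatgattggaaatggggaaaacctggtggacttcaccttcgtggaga

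The 2 dimmer Nsdhl probes lay nearer the 3' end and further below 0. The probe from base 1392 had a mean of -0.47 ± 0.18, and the probe from base 1586 had -0.56 ± 0.33. Every array value of the 3 measured probes was below 0, and in each of the 3 the greater weight loss pool was the lower one. The unmeasured Nsdhl probe, which reads another transcript record, ranged from -1.22 to 0.66 between arrays.

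Hsd17b7 was measured by 2 probes that stayed below 0 on all 4 arrays. The brighter (chromosome 1, 171882591 to 171882650) gave -0.62 and -0.30 in the greater and -0.66 and -0.12 in the less weight loss pool. The lower value of each pool came from the array with GALP in Cy5, and the mean over those 2 arrays was -0.64 against -0.21 with GALP in Cy3. The pools were close, with a mean of -0.42 ± 0.05 (SD, n = 2) and an adjusted p of 0.374 with limma. The less weight loss pool, at -0.39, did not reach the fold of 0.75. The dimmer probe had -0.33 ± 0.04.

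Ebp was nearest to 0 of the 9 genes. It encodes the isomerase that shifts a ring double bond and is named for its binding of emopamil. Its single probe (chromosome X, 7762463 to 7762522) gave 0.26 and -0.18 in the greater and 0.01 and -0.27 in the less weight loss pool. The 2 arrays with GALP in Cy5 were above 0 and the 2 with GALP in Cy3 below. The mean was -0.05 ± 0.12 (SD, n = 2), with a 95% interval of the limma fit from -0.48 to 0.39, and no array had a p under 0.01. The interval covers the means of all the other genes except Cyp51 and Sqle, so these data show neither that Ebp differed from the rest nor that it was unchanged.

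Sc5d held the one called probe of the chain. It encodes lathosterol oxidase, which introduces the double bond that turns lathosterol into 7-dehydrocholesterol, the precursor of both cholesterol and vitamin D. The called probe (chromosome 9, 42060087 to 42060146) gave -0.90 and -0.61 in the greater and -0.91 and -0.77 in the less weight loss pool. Its mean was -0.80 ± 0.06 (SD, n = 2), a 1.74-fold lower signal, with 2262 to 2735 in the GALP channels and 3445 to 5088 in the control channels. The scanner software's p was under 0.01 on all 4 arrays, and the adjusted p of limma was 0.374.

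The brighter Sc5d probe (chromosome 9, 42062857 to 42062916) was also below 0 on every array, with -0.33 and -0.29 in the greater and -0.40 and -0.46 in the less weight loss pool. Its mean was -0.37 ± 0.09 (SD, n = 2), and no array had a p under 0.01. The arrays of the 2 Sc5d probes did not overlap. The called one starts at base 4318 of the transcript and the other at base 1592. With the probes of a gene averaged and p under 0.01 asked of each of them, Sc5d was not called, and 0 members were called in that setting.

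Dhcr7 encodes 7-dehydrocholesterol reductase, the final enzyme when the side chain has already been reduced. Its brighter probe (chromosome 7, 151034253 to 151034312) gave -0.62 and -0.34 in the greater and -0.13 and -0.47 in the less weight loss pool. The mean was -0.39 ± 0.13 (SD, n = 2), a 1.31-fold lower signal, with a p under 0.01 on 1 array. Its other probe gave -0.04, -0.38, -0.57 and -0.14, with a mean of -0.28 ± 0.11. Both probes were below 0 on all 4 arrays, and the adjusted p with limma was 0.470 and 0.492.

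**Figure D2:**
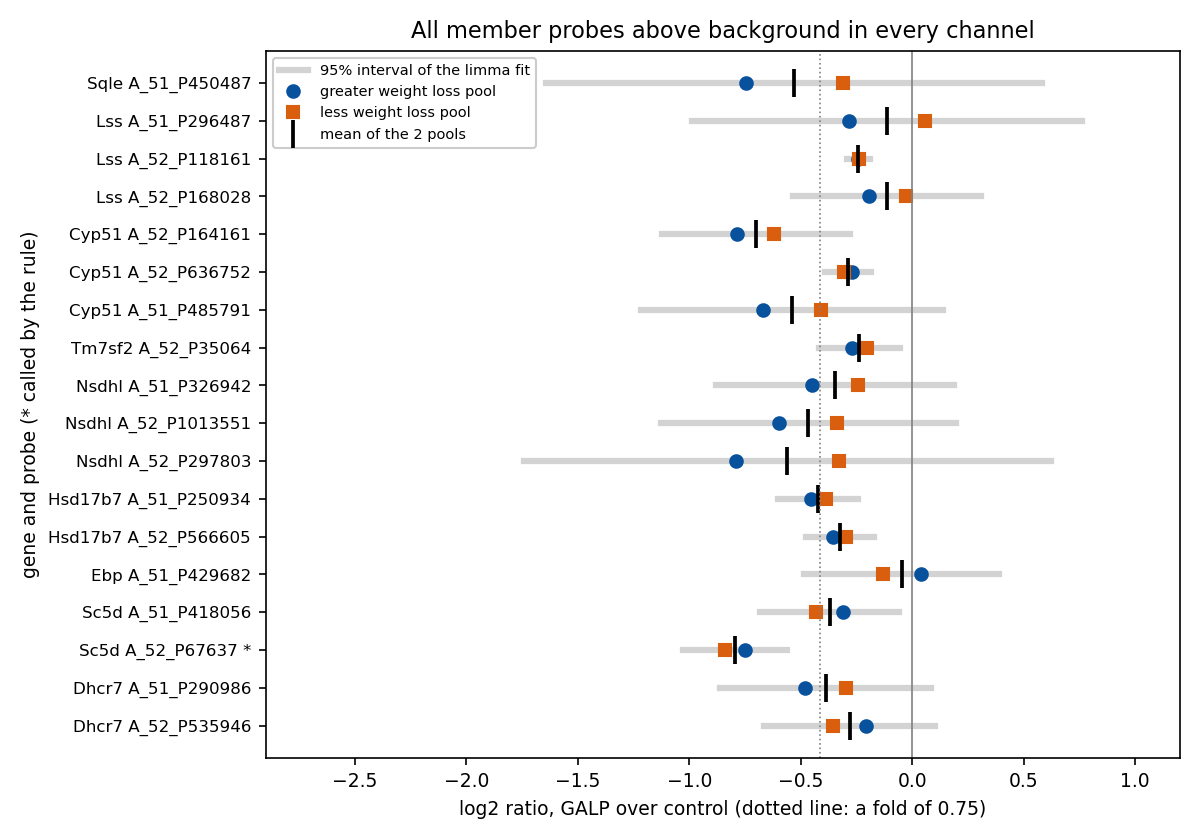
Log2 ratio of GALP over control (horizontal axis) of the 18 member probes above background in every channel (vertical axis, in pathway order, brighter probe first). Circles and squares are the greater and less weight loss pools, the black tick their mean, the grey bar the 95% interval of the limma fit before adjustment, and the dotted line a fold of 0.75. Both marks of the Cyp51 probe A_52_P164161 and of the called Sc5d probe A_52_P67637 lie left of the dotted line, and the mean of every probe is below 0.

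Ordered by their standing probe, the genes ran from Cyp51 (-0.70) and Sqle (-0.53) over Hsd17b7 (-0.42), Dhcr7 (-0.39), Sc5d (-0.37), Nsdhl (-0.35) and Tm7sf2 (-0.24) to Lss (-0.11) and Ebp (-0.05). The gap between each pair of neighbours was smaller than the larger of their SDs, so no neighbours in this order differed beyond their spread. The order did not follow the pathway. The member median was -0.37, against -0.01 over 10655 genes above background in every channel, and 9 of the 9 means were below 0. Probes of the same gene differed by up to 0.42, for both Cyp51 and Sc5d.

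**Figure D3:**
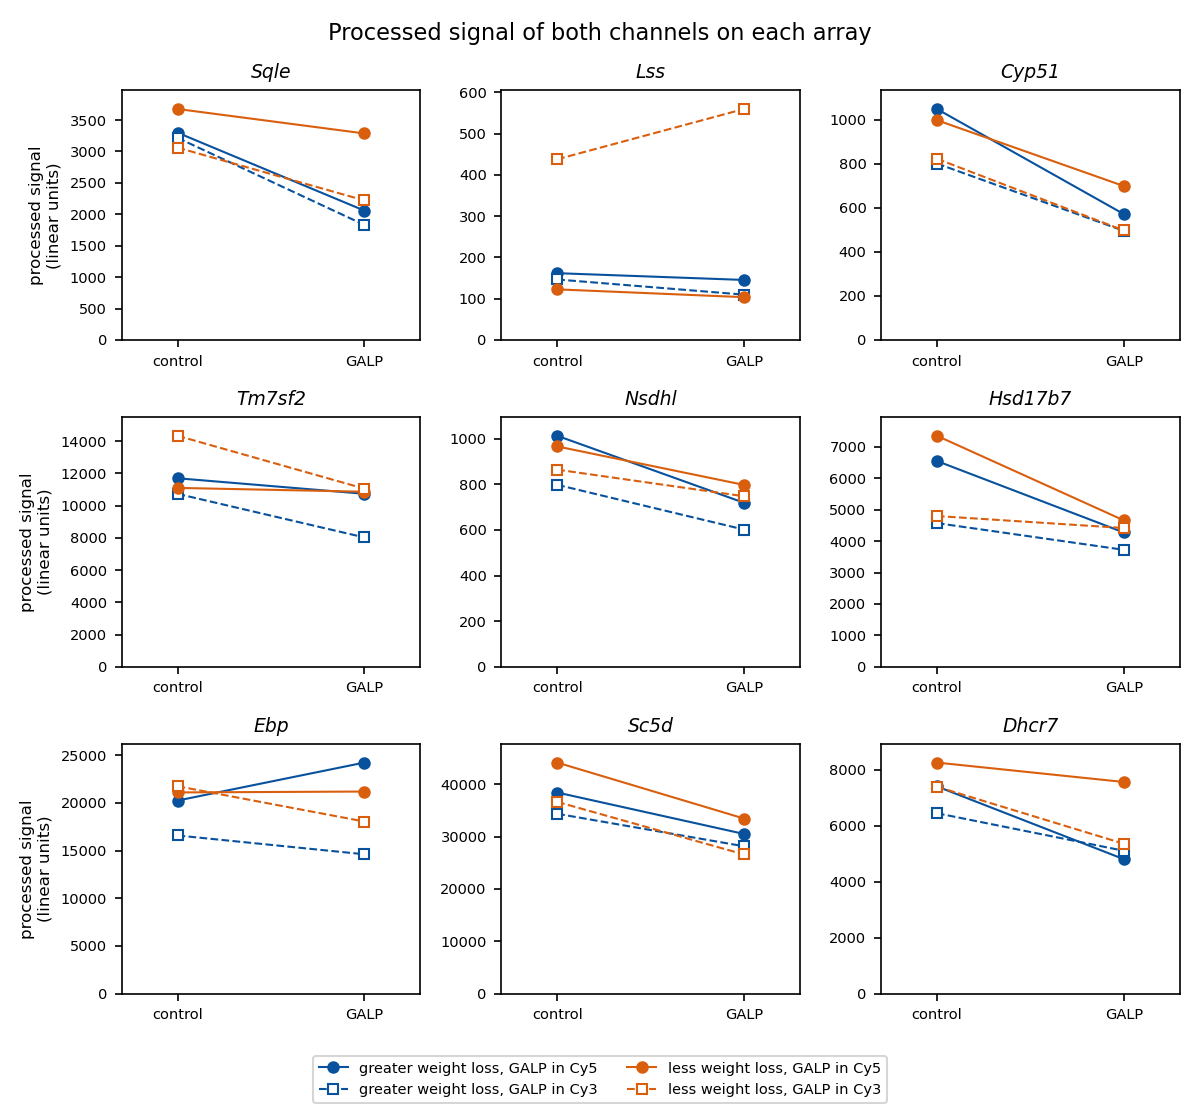
Processed signal in linear units (vertical axes, starting at 0) of the control and the GALP channel (horizontal axes) on each of the 4 arrays for the standing probe of each of the 9 genes. A line joins the 2 channels of 1 array, with colours and marks as above. The Cyp51 and Sc5d lines all slope down from control to GALP, and 1 Lss array stands far above the other 3.

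The 2 GALP pools were then set side by side. In 7 of the 9 the greater weight loss pool was the lower one, as it was at 6781 of 14453 probes, and the member medians were -0.45 and -0.30. The median of the difference, less minus greater weight loss, was 0.16, and over all probes it was -0.01. With 1 pool per weight loss group no test was possible. In 5 genes the difference had the same sign in both dye orientations, as it had at 7612 of the 14453 probes. The greater weight loss pool was the lower one for Sqle, Tm7sf2 and Nsdhl, and the less weight loss pool for Ebp and Sc5d. Among the standing probes Sqle had the widest difference, at 0.43, and a dimmer Nsdhl probe had 0.46. The difference depended on the probe, and its median was 0.07 with all probes of a gene averaged. At the dimmer Dhcr7 probe and the Cyp51 probe at base 1731 the less weight loss pool was the lower one, unlike at the standing probes.

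The dye orientation and the pool gave differences of similar size. For the standing probes the median size of the difference between orientations was 0.17, and that between pools was also 0.17. The orientation outweighed the pool in 3 of the 9 genes by their standing probe, Tm7sf2, Hsd17b7 and Ebp. Counted by probe, it did so at 9 of the 18 measured member probes and at 9418 of all 14453 probes. The member median was -0.38 with either orientation alone.

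The neighbouring steps of sterol synthesis were read in the same way. Of 3 remaining late enzymes read here, 2 were found on the array. Both were below 0 on all 4 arrays, as were 1578 of 10655 genes above background in every channel. Lbr, the reductase that parallels Tm7sf2, had -0.32 ± 0.04 and Msmo1, the oxidase that starts the removal of the methyl groups handled by Nsdhl, had -0.41 ± 0.11. Neither was called. The list is not complete, so these counts do not describe the late chain as a whole.

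Upstream, the mevalonate arm runs from acetyl-CoA to squalene. By the standing probe, 8 of its 9 genes were below 0 on all 4 arrays, beside 1578 of 10655 genes, and the median was -0.34. The standing probe was called lower for 1 of the 9, Mvd, beside 29 of 10655 genes. At least 1 probe was called lower for 3 of the 9 genes. That count takes any probe of a gene, so the 0.132% of single probes called lower is not a like share. Mvd, the decarboxylase that makes isopentenyl diphosphate, had -0.91, -1.04, -1.06 and -0.99 on the 4 arrays. Fdps, which makes farnesyl diphosphate, was called at a dimmer probe with -1.66 ± 0.20 and not at its brighter one with -0.29 ± 0.11. Idi1, the isopentenyl diphosphate isomerase, was likewise called at its dimmer probe with -0.74 ± 0.04 and not at the brighter with -0.34 ± 0.15. The adjusted p of limma was 0.374 for all 3 called probes.

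Among 12 regulators of SREBP and genes of sterol uptake, 10 were measured in every channel, and their median was -0.08. Of these, 7 were below 0 on all 4 arrays, beside 1578 of 10655 genes. The standing probe was called lower for 1 of the 10, Insig1, beside 29 of 10655 genes. Insig1 and Insig2, which hold SREBP in the endoplasmic reticulum when sterols are high, had called probes. Insig1 was called at its brighter probe with -0.66 ± 0.14 and not at its dimmer one with -0.42 ± 0.11. Insig2 was called at its dimmer probe with -0.76 ± 0.17 and not at its brighter one with -0.58 ± 0.10. Among the others, Stard4, a sterol carrier, had -0.43 ± 0.04 and Srebf1, which encodes SREBP-1, had -0.38 ± 0.18, and neither was called. The 6 genes of cholesterol esterification and export had a median of 0.07, with 0 called, and were led by Abcg1 at 0.36 ± 0.13 and Soat1 at 0.33 ± 0.08. For Abcg1 the arrays with GALP in Cy5 gave 0.19 and -0.03, and those with GALP in Cy3 gave 0.72 and 0.57. The lists share the control pool and both GALP pools, and no test between lists was made.

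**Figure D4:**
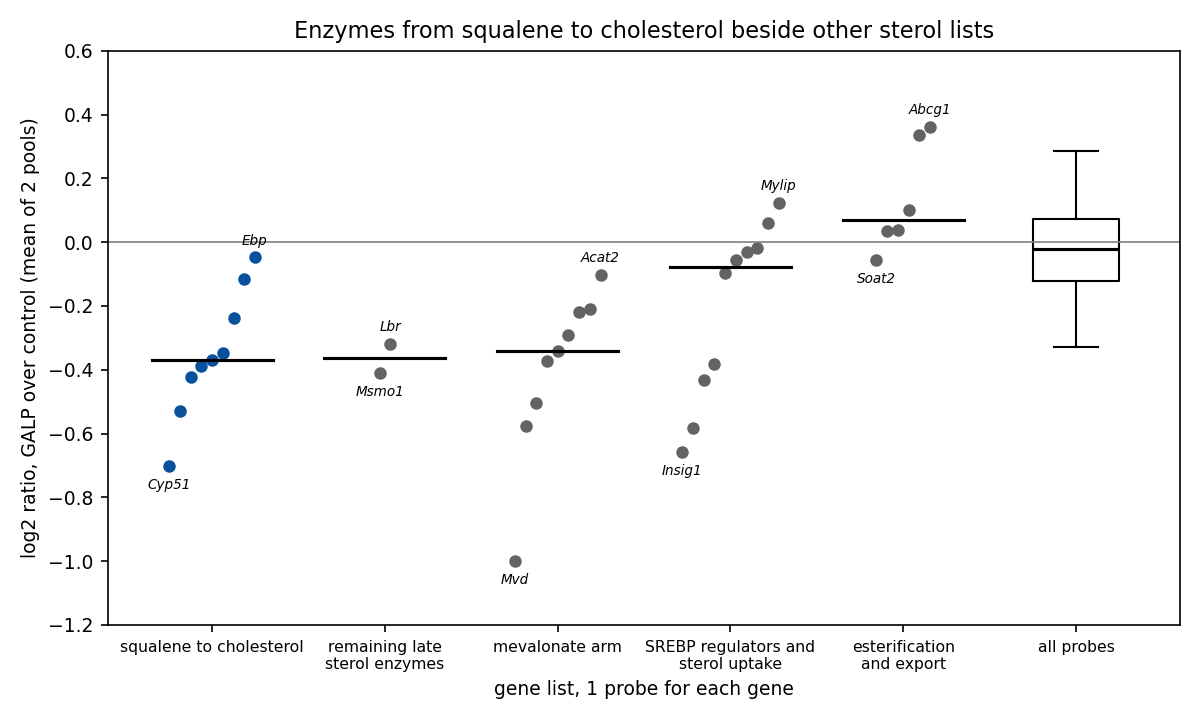
Mean log2 ratio of GALP over control of the 2 pools (vertical axis) for each gene, 1 point a gene, in 5 lists (horizontal axis), with the black line at each list's median. The box at the right gives all 14453 probes above background in every channel, with whiskers at the 5th and 95th percentiles, -0.33 and 0.29. The medians of the first 3 lists are -0.37, -0.36 and -0.34 and that of esterification and export is 0.07, and the box shows the spread of single probes, not of list medians.

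Of 10586 other genes, the 5 closest to the member median on the 4 arrays, by Euclidean distance of log2 ratios, were Psmd10 (distance 0.11), Dixdc1 (0.12), Them4 (0.12), Leap2 (0.13) and Tdp2 (0.13). Their mean log2 ratios lay between -0.36 and -0.32. Within the median distance of the members themselves, 0.46, lay 660 of these 10586 genes. The members' own spread set that distance, so the count does not say how common their profile was.

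Markers of cell types were read alongside, since in bulk liver fewer cells of a type and less RNA per cell cannot be told apart. Of 8 hepatocyte markers 7 were found and measured, with a median of 0.05, and their summed signal was 174227 to 253648 in GALP and 167816 to 248709 in control channels. The means of 2 of the 7, Apoa1 (-0.06 ± 0.23) and Tat (-0.38 ± 0.26), were below 0, and Tat was below 0 on all 4 arrays. Kupffer cell markers had a median of 0.21 over 6 genes, with 1, Marco, called higher at 0.87 ± 0.25, and sums of 12928 to 16537 in GALP against 11234 to 12653 in control. The means of 3 of the 6, Clec4f, Vsig4 and Timd4, were below 0. Stellate cell markers had 0.19 over 5 of 6 genes, with sums of 4499 to 6013 against 3857 to 4671. Sinusoidal endothelial markers had 0.05 over 5 genes and sums of 20714 to 26214 against 21603 to 30433. The 4 measured cholangiocyte markers had -0.12, with Epcam above background in no channel and sums of 6124 to 10572 against 6877 to 7830. The 2 measured adipocyte markers had a median of 0.40, with Lep above background in no channel and sums of 14653 to 17729 against 7815 to 12364. These values rest on Cidec, at 0.75, with a signal of 7692 to 17621 over all channels. Adipoq, with a signal of 57.1 to 133, had 0.06, with 0.38 in the greater and -0.26 in the less weight loss pool. The list is therefore not read as a measure of adipocytes.

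Transcripts of stomach and pancreas were read as well. Of 7 stomach and intestine markers 1 was measured in every channel and Gkn1 in none, with sums of 1271 to 2218 against 1807 to 2034, and Gkn2 and Tff1, secreted stomach proteins above background in 4 and 5 of 8 channels, were called lower in both pools. The 3 pancreatic acinar markers found had a median of -3.72 in the greater and 0.84 in the less weight loss pool, with sums of 3238 to 65879 in GALP and 36108 to 52103 in control channels. The member medians were -0.45 in the greater and -0.30 in the less weight loss pool. The part of any of these cell types in the sterol gene ratios was not tested.

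Promoter sequence was read for the members because most of them shared a direction. RefSeq promoter windows on GRCm38.p6, from 250 bases before to 50 after the transcription start, were given for 8 of the 9 genes, as 10 windows with 3 for Dhcr7, and not for Sqle. The motifs searched on both strands were the sterol regulatory element TCACNCCAC, the NF-Y box CCAAT and the Sp1 box GGGCGG. NF-Y and Sp1 are general factors known to act beside SREBP at sterol genes. Every one of the 8 genes had a window with CCAAT and a window with GGGCGG, in 8 and 9 of the 10 windows, beside 37.4% and 35.7% of all 32851 windows. The 250 bases before the start had a median GC content of 63% in the member windows and 52.4% in all windows, and its part in these matches was not tested. The letters TCACNCCAC were in 0 of the 10 windows and in 1.24% of all windows. Another spelling of the sterol element, TCACCTCA, was added after the windows had been read, and it lay in the windows of Cyp51 and Hsd17b7 and in 1.17% of all windows. Because of that late choice, its matches in the members cannot be judged against the share of all windows. No matches of different motifs overlapped.

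The 250 bases before the start are shown for 4 genes, 5' to 3' along the gene, with every match of the 4 motifs that lies wholly within them in capitals. Cyp51, Hsd17b7 and Sc5d are shown as genes below 0 on all 4 arrays, and Ebp as the gene nearest to 0. Cyp51 lies at chr5:4104698-4104947 on the minus strand, with TCACCTCA starting 88 bases and CCAAT 29 bases before the start. Hsd17b7 lies at chr1:169969206-169969455 on the minus strand, with TCACCTCA at 117 bases and CCAAT, in reverse, at 165, 73 and 12. Sc5d lies at chr9:42264301-42264550 on the minus strand, with a reversed CCAAT at 24. Ebp lies at chrX:8193513-8193762 on the minus strand, with reversed CCAAT at 170 and 55 and GGGCGG at 33. Ebp held the same 2 general motifs as Cyp51 and Sc5d. These matches are letters in a window, not measured binding, and their part in the ratios was not tested.
Cyp51 upstream: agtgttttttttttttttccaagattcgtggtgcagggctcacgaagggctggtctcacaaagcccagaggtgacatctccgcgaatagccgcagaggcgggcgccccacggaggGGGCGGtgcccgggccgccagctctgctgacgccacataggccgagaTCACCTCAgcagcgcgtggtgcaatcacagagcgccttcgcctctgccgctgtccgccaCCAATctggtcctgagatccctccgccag
Hsd17b7 upstream: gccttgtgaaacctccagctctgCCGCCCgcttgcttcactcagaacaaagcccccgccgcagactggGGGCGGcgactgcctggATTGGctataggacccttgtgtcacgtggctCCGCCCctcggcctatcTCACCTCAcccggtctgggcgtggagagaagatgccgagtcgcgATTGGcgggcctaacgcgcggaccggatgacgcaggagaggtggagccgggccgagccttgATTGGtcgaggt
Sc5d upstream: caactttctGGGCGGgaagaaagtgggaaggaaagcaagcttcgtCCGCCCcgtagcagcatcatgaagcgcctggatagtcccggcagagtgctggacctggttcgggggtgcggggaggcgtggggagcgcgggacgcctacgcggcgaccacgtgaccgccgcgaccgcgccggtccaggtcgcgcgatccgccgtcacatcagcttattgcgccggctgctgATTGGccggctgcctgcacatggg
Ebp upstream: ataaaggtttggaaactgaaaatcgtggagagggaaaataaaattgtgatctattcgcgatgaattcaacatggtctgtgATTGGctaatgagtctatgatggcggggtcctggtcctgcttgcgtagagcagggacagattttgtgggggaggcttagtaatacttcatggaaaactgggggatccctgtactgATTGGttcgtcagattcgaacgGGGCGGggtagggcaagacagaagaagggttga

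**Figure D5:**
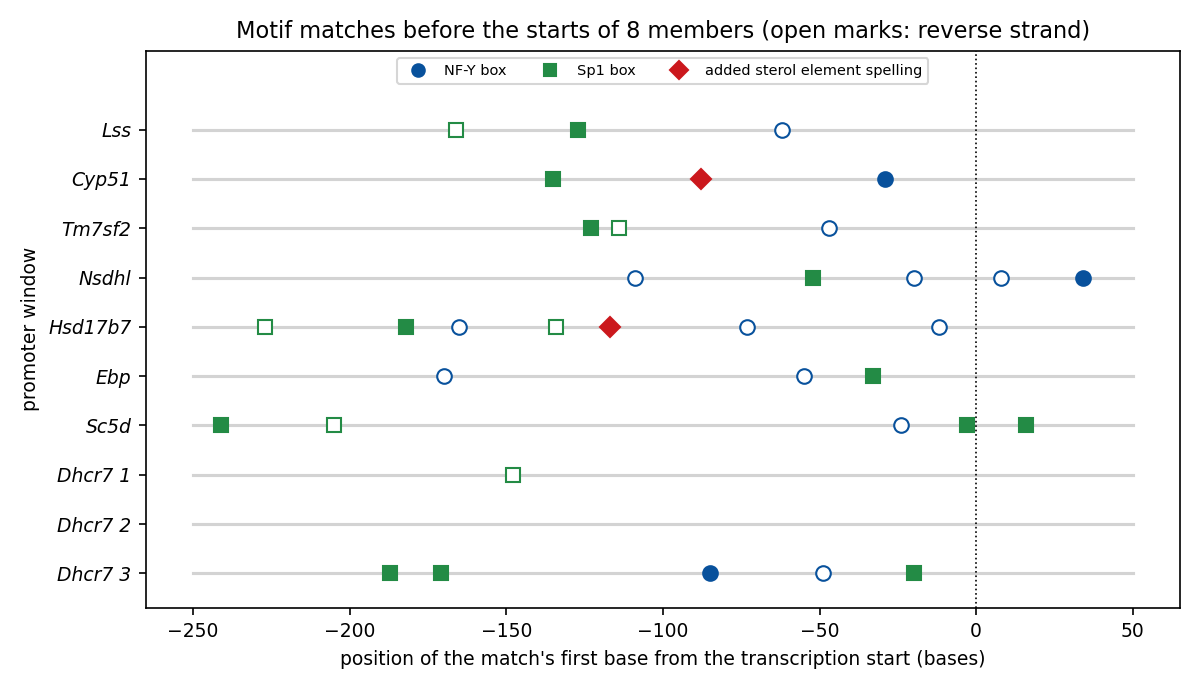
Position of the first base of each motif match from the transcription start, in bases (horizontal axis), in the 10 promoter windows of 8 members (vertical axis). Circles are NF-Y boxes, squares Sp1 boxes and diamonds the added sterol element spelling, and open marks are matches on the reverse strand. Diamonds are seen for Cyp51 and Hsd17b7, and the second Dhcr7 window has no match.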

How the data were processed

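The members, gene lists and tests were chosen with earlier results of these data known. Total RNA was hybridised by the authors to Agilent whole mouse genome arrays with 60-base probes, and Feature Extraction made the deposited files (version 12.0.3.1 per the file headers, 11.0.1.1 in the submitters' processing notes). Per the file headers the values are background-subtracted, dye-normalized intensity values for each channel, a log10 ratio of red over green, and a p-value of that ratio, with mm9 coordinates. The authors' series table gives these log10 values as well, but already turned to GALP over control. It equalled the scanner values at 100% of spots whose scanner ratio was not 0, and its array medians were -0.13 to 0.02 as log2.

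Log10 ratios were converted to log2, turned to GALP over control by the dyes of the labels, and averaged over spots of a probe, without control spots and spots marked as outliers (232 to 319 an array). The 2 arrays of a pool were averaged as 1 replicate, and limma 3.58.1 (lmFit and eBayes, R 4.3.3, 1 residual degree of freedom) tested 2 pools against 0, with Benjamini-Hochberg adjustment over 41037 probes. The number of arrays limits the precision. These p-values leave out the spread of the control pool and between mice.

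Named genes were all 9 members with every probe, up to 4 genes of each other sterol list (those called, otherwise the largest ratios), and the 5 genes closest to the member median. Calls used a strict reading of the methods, with p under 0.01 and a shared direction asked of all 4 arrays. The standing probe of a gene was the one with the highest mean signal. Some genes of the other sterol lists are not reported here, and counts over these lists leave them out. Scripts were tested on simulated data. Gene names are those of the array design, and probes were given their transcript position from the files. Alternatives were normexp background correction with an offset of 50 and loess, centring, the series table, a signal filter, outlier spots kept, single orientations, pools and arrays, looser p rules, and other limma designs. No batch could be separated, since all arrays lie on 1 slide. Promoters came from RefSeq tables of GRCm38.p6, and coordinates of the 2 builds were not compared.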

Additional observations from a re-analysis of the deposited data

Results flagged for a closer look

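The list of pancreatic acinar markers (Cela1, Cpa1 and Pnlip) stood out because its median went opposite ways in the 2 GALP pools, below 0 on both arrays of the greater and above 0 on both arrays of the less weight loss pool. The difference of its median log2 ratio, less minus greater weight loss, was 4.52, and it was not tested, with 1 pool per group. The corresponding median difference of the sterol enzymes was 0.16. Groups of 2 arrays are too small for a test of single outlying samples.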

How the results depend on the processing

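The member median stayed below 0 under all 15 alternatives, between -0.45 and -0.30. Settings that only left out arrays could not have turned its sign, since 7 of the 9 standing probes were below 0 on all 4 arrays. The count of members called by the strict rule was 1, where 54 of all probes were called lower. It was 2 with GALP in Cy3 alone (156 of all probes lower), 2 with GALP in Cy5 alone (140), 4 in the greater weight loss pool alone (162), 2 with p under 0.01 on at least 1 array of each pool (167), 2 with no rule on p (360), and 0 with all probes of a gene averaged. Leaving out 1 array in turn gave 1 to 2, the 2 being reached without the less weight loss array with GALP in Cy5. The limma count of 0 became 2 with normexp and loess and 1 with the pool as a random block, where the estimated correlation within pools was -0.39. It stayed at 0 with each array left out. It also stayed at 0 with dye orientation as a covariate, where the lowest adjusted p of a member was 0.131 with limma. That fit took the 4 arrays as separate replicates, although 2 arrays share each pool. The difference between pools was 0.0441 with GALP in Cy3 alone and 0.0575 to 0.227 with an array left out. It was 0.0684 with all probes of a gene averaged, and the same with the probe of highest median signal. Lss turned to 0.0277 with normexp and loess and 0.0562 in the less weight loss pool alone. Ebp turned to 0.133 with GALP in Cy5 alone and 0.0382 in the greater weight loss pool alone. With an array left out, Lss ranged from -0.26 to 0.0345 and Ebp from -0.16 to 0.0638. The cause of these changes was not tested. The other 7 genes were below 0 under each of the 15 alternatives run for them, though normexp and loess moved Cyp51 to -0.40 and Nsdhl to -0.19. Their standing probes were below 0 on all 4 arrays, so the settings that only left out arrays could not have turned their sign. With the probe of highest median signal, a choice made after seeing the data, Lss had -0.24 and the member median stayed at -0.37. Centring changed nothing, since the median over all probes was 0 on each array. The Nsdhl probe that was above background in no channel allows no ratio to be read.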
